A study of Mus musculus with 96 samples.

Results

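The striatal response to the Q140 allele was compared between mice that lack Pms1 and mice that carry it, in 32 of the 96 libraries of the series. The 4 genotypes entered each with 8 animals (4 females and 4 males) of 6 months on a C57BL/6 background: Q140 heterozygotes that are Pms1-/- (Q140 Pms1 null), Pms1-/- animals without Q140 (Pms1 null), Q140 heterozygotes with intact Pms1 (Q140), and wild type (WT). Members were chosen by the genotype and tissue labels alone. A single value per gene was tested, the interaction: the log2 difference of Q140 Pms1 null minus Pms1 null, less the log2 difference of Q140 minus WT. A positive interaction means that the knock-in effect was higher, or less negative, without Pms1, and a negative interaction means that it was lower. The cortex of the same animals and 16 striata of Pms1 heterozygotes served for comparison. Each animal has a code of its own, so libraries of a genotype are separate animals. Some animals of a genotype share the first number of the code, so their independence is not known.

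Huntington's disease is caused by a lengthened CAG repeat in HTT, and the Q140 allele puts such a repeat into mouse Htt, where it encodes a long glutamine tract. Such repeats lengthen further in somatic cells, above all in medium spiny neurons (MSN) of the striatum. Pms1 encodes a MutL protein of DNA mismatch repair, and mismatch repair proteins are known to drive somatic lengthening. MSN are inhibitory neurons that fall into an indirect-pathway class, which carries dopamine D2 and adenosine A2a receptors and enkephalin, and a direct-pathway class, which carries dopamine D1 receptors and substance P. Loss of their characteristic transcripts is the best-known expression change in mouse models of the disease. Repeat length was not analysed here.

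How the Pms1 allele was made is not described in the labels. Counts over the whole gene do not show which exons reads came from, so its level is only a partial check of the genotype. Pms1 (chromosome 1, 53189187 to 53297018 on GRCm38) had 3.58 to 4.63 CPM (counts scaled to library size) with a median of 4.20 in Q140 Pms1 null striata and 3.08 to 4.46 with a median of 4.12 in Pms1 null striata. Q140 striata had 4.37 to 6.27 with a median of 5.39 and WT striata 4.88 to 5.83 with a median of 5.37. All 8 Pms1 null animals lay below all 8 WT animals (log2 difference -0.43, adjusted p = 0.00145), and Q140 Pms1 null was 0.32 below Q140 on the log2 scale (adjusted p = 0.00418). The interaction on Pms1 itself was 0.11 (adjusted p = 0.625). Htt averaged 216 ± 5.94 CPM in Q140 Pms1 null, 216 ± 4.58 in Pms1 null, 203 ± 4.86 in Q140 and 212 ± 6.58 in WT striata (SD, n = 8 each). Its interaction was 0.06 (adjusted p = 0.248), and the counts do not separate the alleles.

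Libraries held 29352852 to 56364535 counts, and 6.32% to 8.02% of them came from the 10 genes with the highest counts. Markers of MSN, Ppp1r1b and Pde10a among them, were detected in every animal of every genotype, as the values given with them show. A WT male (14-4) and 1 Q140 Pms1 null male (44-1) stood apart from their groups on the leading principal components, and counts are given with and without them. The first number of the animal code was 16 or more in all 8 Q140 Pms1 null animals, all 8 Pms1 null animals, 3 Q140 animals (all male) and 2 WT animals (both female). The sources used here do not say what the code stands for, so Pms1 loss and code number overlap, and values within the high-numbered animals are given beside the results.

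Of 18606 genes tested, 839 (4.51%) had an interaction at an adjusted p below 0.05. The interaction was positive in 579 (3.11%) and negative in 260 (1.40%). Without Q140 animal 7-3 there were 609 calls, 157 of them negative. At an unadjusted p below 0.05 there were 3457 genes, and the median interaction over all genes was -0.004. Of the called differences 88 reached 1.5-fold, 38 of them positive and 50 negative, and 30 reached a log2 size of 1. Leaving out the libraries that stood apart gave 635 calls, 423 positive and 212 negative, of which 590 were among the 839. A term for the high code numbers gave 835 calls. All Q140 Pms1 null and Pms1 null animals are high-numbered, as are 3 Q140 and 2 WT animals. Such a term therefore nearly cancels from the interaction, and the count cannot separate code number from Pms1 loss. Among the high-numbered animals alone no gene was called by edgeR, where 494 of the 839 genes had an unadjusted p below 0.05 and 835 kept their sign. That comparison rests on 3 Q140 and 2 WT animals of opposite sex. The high-numbered libraries are among those that chose the 839 genes, so agreement in sign and small unadjusted p are favoured by the choice.

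The ratio of positive to negative calls depended on how libraries were scaled. With TMM scaling, which corrects for RNA composition, 69% of calls were positive (579 of 839). With library totals alone 28.7% were positive (337 positive, 838 negative). The deposited FPKM values, tested as log2(FPKM + 0.1), gave 304 positive and 714 negative calls, or 29.9% positive. Library totals moved the median interaction of all genes to -0.0541, and 597 of the 839 genes were called under both scalings. All 839 kept their sign with library totals.

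**Figure D1:**
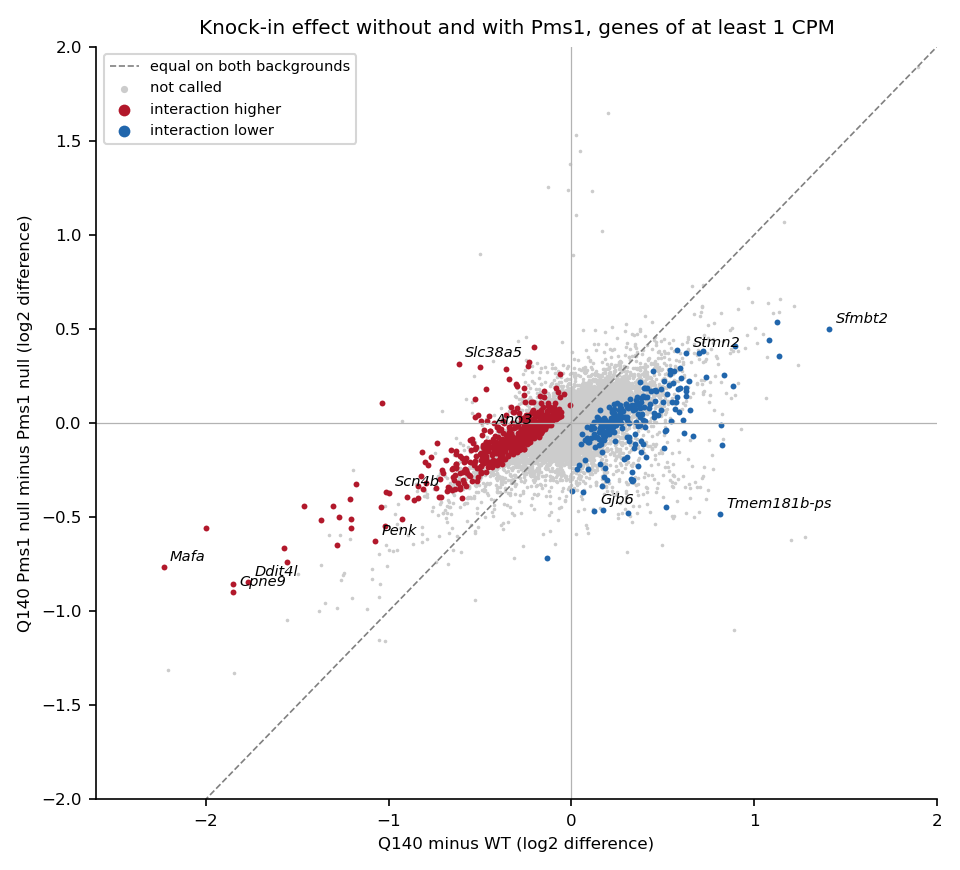
Each point is a gene of at least 1 CPM, with the log2 difference of Q140 minus WT on the horizontal axis and of Q140 Pms1 null minus Pms1 null on the vertical axis. The dashed line marks equal knock-in effects, red and blue points are genes with a called positive (higher) and negative (lower) interaction, and grey points were not called; most red points lie left of 0 and above the line, and Scn4b stands at -1.0 on the horizontal and -0.37 on the vertical axis.

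The plot of the knock-in effects on the 2 backgrounds shows where called genes lie. Among the 579 positive genes the median log2 difference was -0.07 for Q140 Pms1 null minus Pms1 null and -0.30 for Q140 minus WT. In 438 of them the knock-in effect had the same sign on both backgrounds and was smaller without Pms1, and in 141 the sign differed. Among the 260 negative genes the medians were 0.00 for Q140 Pms1 null minus Pms1 null and 0.32 for Q140 minus WT; 135 had the same sign and a smaller size without Pms1, 124 differed in sign, and 1 was larger. These values chose the genes, so they describe the calls and support nothing further. Lower counts of an MSN transcript can come from fewer MSN or from less of that RNA in each, and bulk tissue cannot tell these apart.

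The gene with the smallest p was Ano3, an anoctamin membrane protein (chromosome 2, 110655201 to 110950923). It had 521 to 580 CPM with a median of 554 in Q140 Pms1 null striata and 522 to 622 with a median of 571 in Pms1 null striata, which overlapped. In Q140 striata it had 450 to 500.0 CPM with a median of 460, and in WT striata 575 to 681 with a median of 644. All 8 Q140 animals lay below all 8 WT animals, and all 8 Q140 Pms1 null animals lay above all 8 Q140 animals. The interaction was 0.41 ± 0.04 (SE, log2; adjusted p = 1.11e-06), from a knock-in effect of -0.04 without Pms1 and -0.45 with it. Pms1 null was also below WT (-0.16, adjusted p = 0.00286), and this difference enters the interaction.

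**Figure D2:**
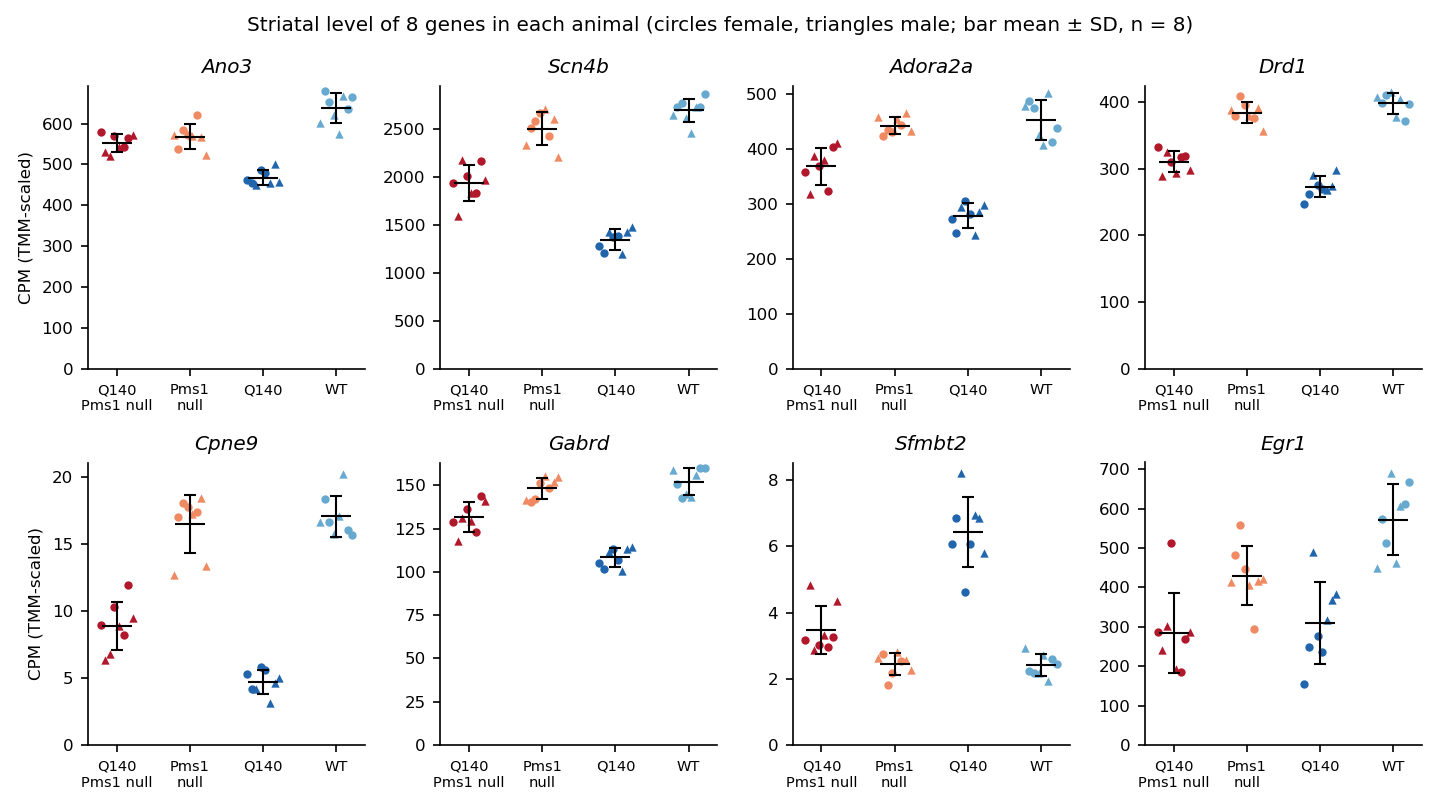
CPM of 8 genes in every animal, with Q140 Pms1 null, Pms1 null, Q140 and WT from left to right; circles are females, triangles males, and bars give the mean ± SD (n = 8). Ano3 in Q140 Pms1 null animals (521 to 580 CPM) lies above all Q140 animals (450 to 500.0 CPM), Sfmbt2 runs the other way, and Egr1 overlaps between all 4 genotypes.

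Genes of MSN identity and signalling made up the most often called list: 20 of 30 tested had a positive interaction and 0 a negative one, against 3.11% and 1.40% of all genes. Among all genes of at least 10 CPM 522 of 10203 were positive. Among genes with a knock-in decrease of 0.2 to 0.4, averaged over both backgrounds, 182 of 656 were. The lists were chosen with earlier results of these data known, so the count is not an independent test. The list's median interaction was 0.24. The knock-in effect over the list had a median of -0.18 on the Pms1 null background, where 18 members were lower and 2 higher (4.96% and 4.91% of all genes were lower and higher), and of -0.41 on the wild-type background, where 26 were lower and 2 higher (15.2% and 15.4% of all genes). Summed over the list, Q140 Pms1 null striata had 21309 to 24508 CPM, Pms1 null 24998 to 29409, Q140 18452 to 20807 and WT 25992 to 29112. All Q140 Pms1 null sums thus lay above all Q140 sums and below all Pms1 null sums. Without the libraries that stood apart 16 members were called, with library totals 16 positive and 1 negative, and among the high-numbered animals 0, with a median of 0.15.

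Within that list Scn4b, an auxiliary subunit of the voltage-gated sodium channel, had 1590 to 2172 CPM with a median of 1949 in Q140 Pms1 null and 2204 to 2702 with a median of 2548 in Pms1 null striata. It had 1198 to 1478 CPM with a median of 1378 in Q140 and 2453 to 2863 with a median of 2728 in WT striata. The 4 genotypes separated fully except for Pms1 null and WT, with Q140 lowest and Q140 Pms1 null next. Its interaction was 0.63 ± 0.07 (adjusted p = 8.35e-06), with knock-in effects of -0.37 without and -1.0 with Pms1. Adcy5, the adenylyl cyclase that dopamine and adenosine receptors act on in MSN, separated in the same way: 1507 to 1744 CPM in Q140 Pms1 null, 1854 to 2055 in Pms1 null, 1257 to 1425 in Q140 and 1933 to 2121 in WT striata. Its interaction was 0.33 ± 0.04 (adjusted p = 8.35e-06).

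Pde1b and Pde10a, which break down cyclic nucleotides, had interactions of 0.27 and 0.32 (adjusted p = 0.000209 and 0.00112). Pde10a had 1792 to 2229 CPM with a median of 1956 in Q140 Pms1 null and 2226 to 2699 with a median of 2616 in Pms1 null striata, and 1492 to 1714 with a median of 1597 in Q140 and 2308 to 2669 with a median of 2572 in WT striata. Every Q140 Pms1 null animal was above every Q140 animal for both genes. Ppp1r1b, which encodes the protein phosphatase inhibitor DARPP-32, averaged 2236 ± 152 CPM in Q140 Pms1 null, 2790 ± 198 in Pms1 null, 1795 ± 98.8 in Q140 and 2701 ± 134 in WT striata (SD, n = 8 each), with an interaction of 0.27 (adjusted p = 0.00554). Its relative Ppp1r1a, another phosphatase inhibitor, had 62.0 to 76.5 CPM in Q140 Pms1 null, 79.9 to 87.3 in Pms1 null, 53.3 to 61.4 in Q140 and 78.3 to 88.3 in WT striata, which separated by genotype as Scn4b did. Its interaction was 0.38 ± 0.05 (adjusted p = 8.35e-06). Ppp1r1a and Pde1b are neighbours on chromosome 15 and point towards each other, and the counting is not stated to use strand, so they are not counted as independent.

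Other called members were the cannabinoid receptor gene Cnr1 (0.48, adjusted p = 0.0200) and the calcium release channel gene Ryr1 (0.59, adjusted p = 0.00751). Ryr1 averaged 116 ± 21.2 CPM in Q140 Pms1 null, 159 ± 15.6 in Pms1 null, 72.2 ± 10.2 in Q140 and 148 ± 11.7 in WT striata (SD, n = 8 each). Cnr1 was not called once the libraries that stood apart were left out (0.41). Ddit4l, an inhibitor of mTORC1 signalling, had the largest interaction of the list, 0.92 ± 0.14 (adjusted p = 0.000209): 16.8 to 29.5 CPM in Q140 Pms1 null, 34.1 to 49.7 in Pms1 null, 10.0 to 14.4 in Q140 and 36.5 to 54.6 in WT striata. The member with a negative value, Gpr149, was not called by edgeR (-0.45, adjusted p = 0.0505); DESeq2, voom and library totals each called 1 member of the list negative.

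Markers of the indirect pathway had positive interactions in 4 of 7 tested (median 0.27), against 3.11% of all genes. Adora2a, the adenosine A2a receptor gene, had 318 to 411 CPM with a median of 374 in Q140 Pms1 null and 423 to 466 with a median of 439 in Pms1 null striata. It had 244 to 306 CPM with a median of 284 in Q140 and 409 to 502 with a median of 457 in WT striata. All Q140 Pms1 null animals lay above all Q140 animals and below all Pms1 null animals. The interaction was 0.44 ± 0.07 (adjusted p = 0.000568). Penk, which encodes enkephalin, separated likewise, with 921 to 1255 CPM in Q140 Pms1 null, 1502 to 1921 in Pms1 null, 769 to 906 in Q140 and 1604 to 2007 in WT striata. Its knock-in effect was -0.63 without and -1.08 with Pms1, an interaction of 0.45 ± 0.08 (adjusted p = 0.00129).

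The dopamine D2 receptor gene Drd2 had 172 to 219 CPM with a median of 196 in Q140 Pms1 null and 202 to 253 with a median of 227 in Pms1 null striata, against 140 to 167 with a median of 158 in Q140 and 205 to 237 with a median of 225 in WT striata. Its interaction was 0.31 ± 0.06 (adjusted p = 0.00199), and Gpr6, an orphan receptor of the same neurons, had 0.27 ± 0.06 (adjusted p = 0.00857). Among the high-numbered animals the interaction was 0.42 for Adora2a, 0.19 for Penk, 0.18 for Drd2 and 0.10 for Gpr6. The value for Adora2a was close to that of all animals, and the other values were lower.

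Markers of the direct pathway differed among themselves. A positive interaction was called in 2 of 9, against 3.11% of all genes. The list's median was 0.03, and it was below 0 with voom (-0.00801), with library totals (-0.0260), among the high-numbered animals (-0.0225) and without the libraries that stood apart (-0.0455). Drd1, the dopamine D1 receptor gene, had 289 to 333 CPM with a median of 314 in Q140 Pms1 null and 356 to 409 with a median of 384 in Pms1 null striata, and 247 to 298 with a median of 271 in Q140 and 372 to 416 with a median of 402 in WT striata. Its interaction was 0.24 ± 0.05 (adjusted p = 0.00225), and that of the muscarinic M4 receptor gene Chrm4 was 0.23 ± 0.06 (adjusted p = 0.0114). Tac1, the substance P precursor gene, was higher in Q140 than in WT (0.17, adjusted p = 0.00191), did not pass for Q140 Pms1 null minus Pms1 null (0.06, adjusted p = 0.366), and had an interaction of -0.10 (adjusted p = 0.351). The dynorphin gene Pdyn had 0.09 (adjusted p = 0.789). Whether the pathways differ in the interaction was not tested.

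Shared regulation of called genes was not tested, and promoters of some of them are printed here. They are the 250 bases upstream of the start of Scn4b, Adcy5 and Drd2, whose interactions were positive, and of Sfmbt2, whose interaction was negative and is described below. RefSeq and GENCODE M21 place the Scn4b start differently, and most of its window lies inside the GENCODE gene, which starts at 45138395. The sequences come from RefSeq on GRCm38.p6, all on the plus strand of the chromosome and written 5′ to 3′. Scn4b is at chr9:45138374-45138623, Adcy5 at chr16:35154614-35154863, Drd2 at chr9:49340153-49340402 and Sfmbt2 at chr2:10370201-10370450. Capitals mark the GC box, GGGCGG or on the other strand CCGCCC, the core letters that Sp-family factors are known to bind.
Scn4b: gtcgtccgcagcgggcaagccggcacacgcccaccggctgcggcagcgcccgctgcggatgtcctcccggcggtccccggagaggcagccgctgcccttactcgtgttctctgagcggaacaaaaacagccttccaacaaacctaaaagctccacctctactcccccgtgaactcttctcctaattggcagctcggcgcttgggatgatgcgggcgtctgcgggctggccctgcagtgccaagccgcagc
Adcy5: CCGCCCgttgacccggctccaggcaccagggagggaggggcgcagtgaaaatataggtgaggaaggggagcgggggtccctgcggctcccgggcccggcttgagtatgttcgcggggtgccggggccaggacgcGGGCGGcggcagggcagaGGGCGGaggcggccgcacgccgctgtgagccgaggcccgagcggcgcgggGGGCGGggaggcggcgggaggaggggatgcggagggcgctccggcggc
Drd2: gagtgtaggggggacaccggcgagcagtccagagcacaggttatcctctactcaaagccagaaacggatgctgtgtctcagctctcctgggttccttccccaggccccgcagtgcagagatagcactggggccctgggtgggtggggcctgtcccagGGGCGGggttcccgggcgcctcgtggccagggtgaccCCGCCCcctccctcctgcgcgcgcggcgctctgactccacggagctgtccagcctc
Sfmbt2: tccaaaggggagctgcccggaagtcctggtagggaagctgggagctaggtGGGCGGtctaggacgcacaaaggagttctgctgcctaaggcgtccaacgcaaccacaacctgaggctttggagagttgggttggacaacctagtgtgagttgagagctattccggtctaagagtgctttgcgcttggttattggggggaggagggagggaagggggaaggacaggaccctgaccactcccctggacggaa
Adcy5 had 4 GC boxes, Drd2 2, Sfmbt2 1 and Scn4b 0, and the GC content was 78% in Adcy5, 68.8% in Drd2, 66% in Scn4b and 58.4% in Sfmbt2. A TATA box (TATAAA or TTTATA) occurred in 0 of them. Over all tested genes with a promoter in the table, 6893 of 12116 (56.9%) held a GC box in the 250 bases, against 272 of 418 (65.1%) of the matched positive genes and 105 of 189 (55.6%) of the matched negative genes. TATA boxes were in 4.79% of positive, 7.41% of negative and 6.66% of all matched genes. Median GC content was 63.6% in positive, 60% in negative and 59.6% in all matched genes. In the positive genes the GC box share and the GC content were thus both higher than over all matched genes. In the negative genes the GC box share was slightly lower and the GC content slightly higher. The part of base composition in the GC box shares was not tested. Genes with a positive interaction also had higher counts, with a median of 115 CPM (not per length) against 13.5 CPM over all tested genes, and the part of abundance in these shares was not tested.

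Regulators of G-protein signalling shorten receptor signals by speeding up GTP hydrolysis. In this list 6 of 18 tested genes had a positive interaction and 0 a negative one, against 3.11% and 1.40% of all genes, with a median of 0.16. Rgs4 had 590 to 732 CPM with a median of 654 in Q140 Pms1 null and 693 to 847 with a median of 784 in Pms1 null striata, against 430 to 577 with a median of 497 in Q140 and 686 to 930 with a median of 823 in WT striata. All Q140 Pms1 null animals lay above all Q140 animals. Its interaction was 0.46 ± 0.08 (adjusted p = 0.000953), that of Rgs14 0.51 ± 0.10 (adjusted p = 0.00251) and that of Rgs7 0.16 ± 0.04 (adjusted p = 0.0175). Rgs7 had almost equal means in Q140 Pms1 null (54.2 CPM) and Pms1 null striata (53.9 CPM), and was lower in Q140 (50.6 CPM) than in WT striata (56.3 CPM; -0.16, adjusted p = 8.28e-05). With library totals 3 members of the list were called.

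Ion channel genes were called in 9 of 39, all positive (median 0.11), against 3.11% of all genes. With library totals, and likewise without the libraries that stood apart, 7 were called positive and 1 negative. The inward rectifier gene Kcnj4 had 186 to 208 CPM with a median of 199 in Q140 Pms1 null, 212 to 240 with a median of 225 in Pms1 null, 146 to 182 with a median of 176 in Q140 and 231 to 247 with a median of 234 in WT striata, with an interaction of 0.30 ± 0.05 (adjusted p = 0.000294). Every Q140 Pms1 null animal lay between the Q140 and the Pms1 null animals. Kcnip3, a calcium-binding partner of Kv4 channels, showed another pattern. It had 121 to 138 CPM with a median of 130 in Q140 Pms1 null and 117 to 138 with a median of 130 in Pms1 null striata, which overlapped, against 90.8 to 117 with a median of 106 in Q140 and 124 to 145 with a median of 135 in WT striata, which did not. The knock-in effect was 0.00 without and -0.37 with Pms1, and the interaction 0.37 ± 0.06 (adjusted p = 0.000297). Kcnab1, a beta subunit of potassium channels, had 0.27 ± 0.05 (adjusted p = 0.00111), and 0.11 among the high-numbered animals.

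Genes of calcium release, pumps and calcium-dependent kinases were called in 9 of 23, all positive (median 0.11), against 3.11% of all genes, and the count was 9 both with library totals and without the libraries that stood apart. Itpr1, the inositol trisphosphate receptor of the endoplasmic reticulum, averaged 1443 ± 96.8 CPM in Q140 Pms1 null, 1663 ± 99.7 in Pms1 null, 1233 ± 47.3 in Q140 and 1724 ± 103 in WT striata (SD, n = 8 each), with an interaction of 0.28 ± 0.05 (adjusted p = 0.000729). Camk2b, a subunit of calmodulin-dependent kinase II, had 0.21 ± 0.04 (adjusted p = 0.000729), and the protein kinase C gene Prkcb had 0.26 ± 0.05 (adjusted p = 0.000563). All Q140 Pms1 null animals lay above all Q140 animals for Itpr1 and Camk2b, and these groups overlapped for Prkcb. Among phosphodiesterase genes outside the MSN list 0 of 15 were called by edgeR (median 0.03), with 3 at an unadjusted p below 0.05; 3 were called by DESeq2 and 2 with all 48 striatal libraries, all positive. Among neuropeptides 0 of 14 were called by edgeR or DESeq2, with 3 at an unadjusted p below 0.05.

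Glutamate and GABA receptor genes were called in 7 of 34, all positive (median 0.07), against 3.11% of all genes. The count was 4 with library totals and 6 without the libraries that stood apart. Gabrd, the GABA-A delta subunit of extrasynaptic receptors, had 118 to 144 CPM with a median of 130 in Q140 Pms1 null and 141 to 155 with a median of 150 in Pms1 null striata, against 101 to 114 with a median of 109 in Q140 and 143 to 160 with a median of 153 in WT striata. All Q140 Pms1 null animals lay above all Q140 animals. The interaction was 0.32 ± 0.05 for Gabrd and 0.23 ± 0.04 for Grm5, a metabotropic glutamate receptor gene (adjusted p = 0.000297 for each). Gabra2, the GABA-A alpha 2 subunit gene, was called (0.80 ± 0.23, adjusted p = 0.0461) but differed in kind. Its values fell in steps between animals of 1 genotype, with 80.8 to 92.1 CPM in 4 Q140 animals and 131 to 138 in the other 4, and 88.9 CPM in WT animal 14-4 against 128 to 178 in the other WT animals. The interaction in cortex was 0.94, of like size, and the call was lost in 20 of 32 fits that left out 1 library.

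**Figure D3:**
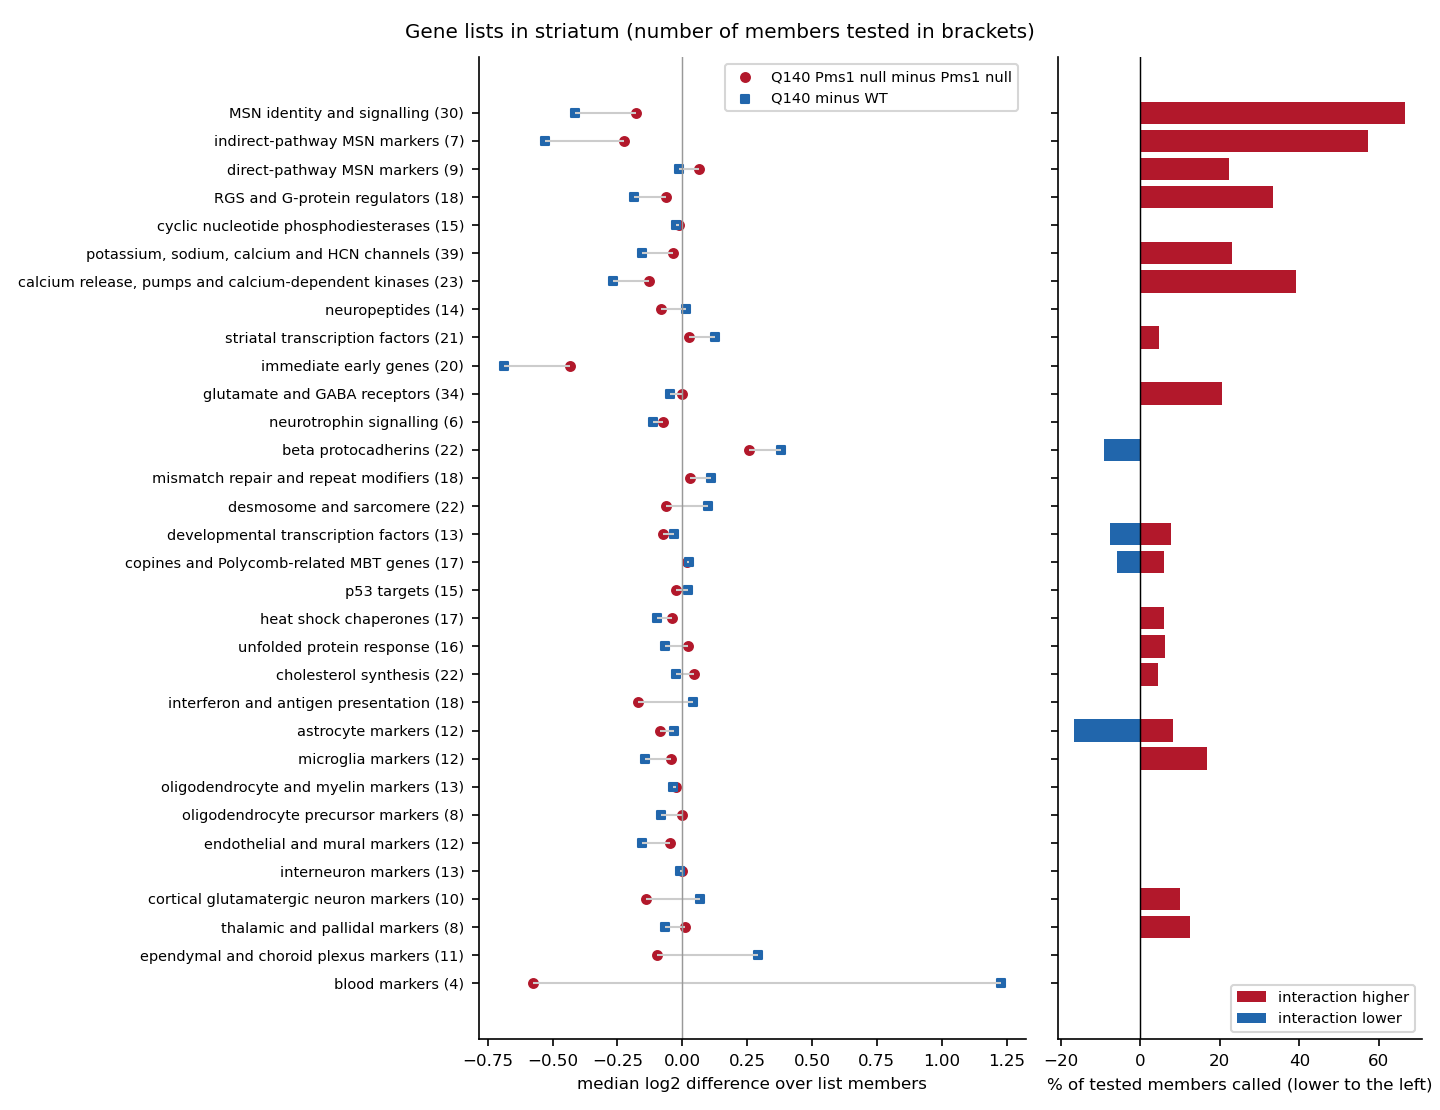
Left, the median log2 difference over the members of each list for Q140 Pms1 null minus Pms1 null (red circles) and Q140 minus WT (blue squares), with the number of members tested in brackets; right, the percentage of tested members with a called positive (red, to the right) or negative (blue, to the left) interaction. The MSN identity list has medians of -0.18 and -0.41 and 20 of 30 members called positive, and the beta protocadherins have medians of 0.26 and 0.38.

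Immediate early genes, which neurons induce when active, were lower with the knock-in on both backgrounds in part of the list. In the list 7 of 20 were lower in Q140 Pms1 null than in Pms1 null (list median -0.43), against 4.96% of all genes, and 14 were lower in Q140 than in WT (median -0.69), against 15.2%. By edgeR 0 of 20 had a called interaction (median 0.22), with 1 at an unadjusted p below 0.05, and by DESeq2 1 was called, positive. Egr1 had 186 to 512 CPM with a median of 277 in Q140 Pms1 null, 293 to 558 with a median of 420 in Pms1 null, 156 to 489 with a median of 297 in Q140 and 449 to 690 with a median of 590 in WT striata. Its interaction was 0.30 ± 0.27 (adjusted p = 0.604), so its error was nearly as large as its value. The values in males alone were of the opposite sign for Egr1 (-0.20), Egr2 (-0.48) and Arc (-0.61), and the list's median was 0.02 among the high-numbered animals.

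Among the largest positive interactions the values were often low in count. Mafa, a bZIP transcription factor (chromosome 15, 75745490 to 75748228), had 1.46 ± 0.23 (adjusted p = 0.000209): 0.939 to 1.83 CPM with a median of 1.33 in Q140 Pms1 null and 1.91 to 3.36 with a median of 2.25 in Pms1 null striata, against 0.498 to 0.958 with a median of 0.659 in Q140 and 1.92 to 4.04 with a median of 3.28 in WT striata. It was 1.56 among the high-numbered animals. Cpne9, a copine that binds membranes in a calcium-dependent way, had 6.37 to 11.9 CPM with a median of 8.94 in Q140 Pms1 null, 12.7 to 18.4 with a median of 17.3 in Pms1 null, 3.15 to 5.85 with a median of 4.81 in Q140 and 15.7 to 20.2 with a median of 16.6 in WT striata. Its 4 genotypes separated fully except for the 2 without the knock-in, and the interaction was 0.95 ± 0.14 (adjusted p = 0.000209).

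Gpx6, a glutathione peroxidase, had 1.00 ± 0.19 (adjusted p = 0.00208) and averaged 7.07 CPM in Q140 Pms1 null, 12.7 in Pms1 null, 3.84 in Q140 and 13.9 in WT striata. The Wnt ligand gene Wnt8b had 1.44 ± 0.42 (adjusted p = 0.0435), a call that was lost in 18 of 32 fits that left out 1 library. Slc38a5, a glutamine transporter, was called (0.93 ± 0.21, adjusted p = 0.00749) although neither Q140 Pms1 null minus Pms1 null (0.32, adjusted p = 0.209) nor Q140 Pms1 null minus Q140 (0.26, adjusted p = 0.373) passed. Its medians were 1.75 CPM in Q140 Pms1 null, 1.37 in Pms1 null, 1.32 in Q140 and 2.05 in WT striata, the last with a range of 1.59 to 3.20. Cap1, a regulator of actin, combined a large count with a small p: 390 ± 18.8 CPM in Q140 Pms1 null, 418 ± 11.7 in Pms1 null, 326 ± 10.5 in Q140 and 439 ± 24.1 in WT striata (SD, n = 8 each), with an interaction of 0.33 ± 0.04 (adjusted p = 8.35e-06).

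Genes with a negative interaction numbered 260 and had a median level of 18.0 CPM, not per length. Sfmbt2, a Polycomb-related gene (chromosome 2, 10370510 to 10595253), had the smallest p among them. It had 2.87 to 4.84 CPM with a median of 3.22 in Q140 Pms1 null and 1.82 to 2.82 with a median of 2.56 in Pms1 null striata, and 4.63 to 8.21 with a median of 6.46 in Q140 and 1.94 to 2.93 with a median of 2.35 in WT striata. On each background every knock-in animal lay above every animal without the knock-in, and the rise was 0.50 without and 1.41 with Pms1. The interaction was -0.91 ± 0.15 (adjusted p = 0.000297). Stmn2, a tubulin-binding stathmin of neurites, followed the same order, with 76.8 to 96.5 CPM in Q140 Pms1 null, 60.3 to 67.0 in Pms1 null, 89.0 to 101 in Q140 and 60.4 to 64.6 in WT striata, and an interaction of -0.26 ± 0.05 (adjusted p = 0.00140).

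Enah, an actin regulator of the Ena/VASP family, did not pass for Q140 Pms1 null minus Pms1 null (0.03, adjusted p = 0.601). It had 117 to 130 CPM with a median of 123 in Q140 Pms1 null and 113 to 127 with a median of 121 in Pms1 null striata, and 132 to 151 with a median of 140 in Q140 and 105 to 122 with a median of 113 in WT striata. Every Q140 Pms1 null animal lay below every Q140 animal, and the interaction was -0.27 ± 0.04 (adjusted p = 0.000297). Fabp3, a fatty acid-binding protein gene, had the same pattern at 8.90 to 10.5 CPM in Q140 Pms1 null, 9.27 to 11.0 in Pms1 null, 10.7 to 11.8 in Q140 and 8.97 to 10.3 in WT striata (interaction -0.26 ± 0.06, adjusted p = 0.00679).

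Another pattern among negative interactions was a level already higher in Pms1 null than in WT. Letm2, a relative of a mitochondrial inner membrane protein gene, averaged 27.3 ± 1.91 CPM in Q140 Pms1 null, 25.7 ± 0.854 in Pms1 null, 28.4 ± 1.67 in Q140 and 21.8 ± 1.16 in WT striata (SD, n = 8 each). Pms1 null was above WT (0.23, adjusted p = 0.00127), Q140 was above WT (0.38, adjusted p = 8.79e-10), and Q140 Pms1 null minus Pms1 null did not pass (0.08, adjusted p = 0.172), an interaction of -0.29 ± 0.05 (adjusted p = 0.000961). Rgsl1, a gene of the regulator of G-protein signalling family, had 2.61 CPM in Q140 Pms1 null, 2.62 in Pms1 null, 2.83 in Q140 and 1.60 in WT striata on average, with an interaction of -0.83 ± 0.15 (adjusted p = 0.00115). Teddm2, next to Rgsl1 on chromosome 1, had -0.94 ± 0.23 (adjusted p = 0.0113), and the collagen gene Col5a3 -0.97 ± 0.23 (adjusted p = 0.00978). Over all genes Pms1 null minus WT was called in 6.28%, and the code numbers differ between these groups as given above, so the effect of Pms1 loss and of the code cannot be told apart in that comparison. Over the 260 negative genes the median of Pms1 null minus WT was 0.17, and over the 579 positive genes -0.07; the interaction contains this difference with its sign turned, so these medians are in part fixed by the choice.

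A pseudogene, Tmem181b-ps, had an interaction of -1.30 ± 0.34 (adjusted p = 0.0242), and near-identical copies make its counts uncertain. Its values fell in steps between animals of a genotype: 107.9 to 112 CPM in 5 Q140 Pms1 null animals and 204 to 318 in the other 3, 107 to 342 in Pms1 null, 196 to 323 in Q140, and 98.9 to 107 in 3 WT animals and 200.2 to 208 in the other 5. The interaction in cortex was -1.23. Wt1, a zinc-finger transcription factor, was read mainly in Q140 striata: 0.284 to 1.31 CPM with a median of 0.719 there, against 0 to 0.339 in Q140 Pms1 null, 0 to 0.126 in Pms1 null and 0 to 0.237 in WT striata. Its interaction was -2.68 ± 0.81 (adjusted p = 0.0494), a call lost in 27 of 32 fits that left out 1 library.

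Beta protocadherins, a cluster of cell adhesion genes on chromosome 18, were higher with the knock-in on both backgrounds. In the list 14 of 22 were higher in Q140 Pms1 null than in Pms1 null (median 0.26), against 4.91% of all genes, and 14 in Q140 than in WT (median 0.38), against 15.4%, with 0 lower in either. A called interaction was found in 2, both negative: Pcdhb22 (-0.36 ± 0.08, adjusted p = 0.00318) and Pcdhb21 (-0.33 ± 0.10, adjusted p = 0.0394). The call of Pcdhb21 was lost in 19 of 32 fits that left out 1 library and without the libraries that stood apart. Pcdhb22 had 13.9 to 18.6 CPM in Q140 Pms1 null, 12.1 to 14.1 in Pms1 null, 17.0 to 19.2 in Q140 and 11.0 to 13.8 in WT striata. These genes belong to 1 family, and the 2 overlap each other, so counts may be shared between them. Pcdhb3 had a rise of like size on both backgrounds (0.59 and 0.71) and an interaction of -0.12 (adjusted p = 0.641). The median interaction of the list was -0.08, and 0.02 among the high-numbered animals.

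Genes of mismatch repair and other modifiers of repeat length were called in 0 of 18 by edgeR or DESeq2, with 1 at an unadjusted p below 0.05. Pms1 itself was not among the 18. The median interaction was -0.06, and 1 of the 18 had a value above 0. Of the 18, 3 were higher in Q140 Pms1 null than in Pms1 null, against 4.91% of all genes. In Q140 against WT 8 were higher, against 15.4%. Among p53 targets 0 of 15 were called by edgeR, with 3 at an unadjusted p below 0.05, and 1 by DESeq2, negative. Among interferon and antigen presentation genes 0 of 18 were called by edgeR or DESeq2, with 1 at an unadjusted p below 0.05. Among stress lists 1 of 17 heat shock chaperones (Hspa4), 1 of 16 unfolded protein response genes (Atf6) and 1 of 22 cholesterol synthesis genes (Srebf2) were called. Each was positive, against 3.11% of all genes, and a single call does not set a list apart. Heat shock chaperones and the unfolded protein response had 0 called with library totals and with no sex term. The unfolded protein response also had 0 called without the libraries that stood apart. Among striatal transcription factors 1 of 21 was called, Rarb (0.22). In that list 0 were called with all 48 striatal libraries, and library totals called 1, negative. Neurotrophin signalling had 0 of 6 called by edgeR or DESeq2, and 0 at an unadjusted p below 0.05. Genes of desmosome and sarcomere had 0 of 22 called by edgeR, with 9 at an unadjusted p below 0.05; DESeq2 called 1, voom 1 and library totals 3, all negative.

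Markers of other cell types were read for the whole list. Over all genes 3.11% were called positive and 1.40% negative, and the lists are short, so 1 or 2 calls do not set a list apart. Astrocyte markers summed to 4171 to 4564 CPM in Q140 Pms1 null, 4390 to 4875 in Pms1 null, 4137 to 4484 in Q140 and 4522 to 4891 in WT striata; 1 of 12 was called positive (Slc4a4) and 2 negative, the connexin genes Gja1 (-0.28 ± 0.08, adjusted p = 0.0335) and Gjb6 (-0.59 ± 0.17, adjusted p = 0.0490). Both connexin calls were lost without the libraries that stood apart, and Gjb6 was 18.2 to 37.6 CPM in Pms1 null against 15.4 to 24.3 in Q140 Pms1 null striata, with Q140 (18.0 to 24.4) and WT (15.0 to 21.7) close to each other. Microglia markers summed to 451 to 538 CPM in Q140 Pms1 null, 494 to 516 in Pms1 null, 440 to 513 in Q140 and 508 to 547 in WT striata; 2 of 12 were called, both positive, the purinergic receptor gene P2ry12 (0.25, adjusted p = 0.00556) and the fractalkine receptor gene Cx3cr1 (0.24, adjusted p = 0.0373), and all 12 had a value above 0. Cx3cr1 lost its call in 16 of 32 fits that left out 1 library. Of the 12 microglia markers, 0 were called for Q140 Pms1 null minus Pms1 null or for Q140 Pms1 null minus Q140. In Q140 against WT 7 were lower, against 15.2% of all genes. In Pms1 null against WT 2 were lower, against 595 of 18606 genes, and this difference enters the interaction.

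Myelin markers summed to 5018 to 7287 CPM in Q140 Pms1 null, 5544 to 7205 in Pms1 null, 4993 to 7255 in Q140 and 5715 to 7133 in WT striata, with 0 of 13 called by edgeR or DESeq2 and 0 at an unadjusted p below 0.05. Markers of oligodendrocyte precursors (8), ependyma and choroid plexus (11) and blood (4) had 0 called by edgeR or DESeq2, with 0, 1 and 0 at an unadjusted p below 0.05. Endothelial and mural markers (12) had 0 called by edgeR and 3 at an unadjusted p below 0.05, with 2 called by DESeq2 and 1 by voom, all positive. Interneuron markers (13) had 0 called by edgeR and 2 at an unadjusted p below 0.05, with 1 called by DESeq2, positive. The blood markers had a median interaction of -1.8 and summed to 0.375 to 7.33 CPM in Q140 Pms1 null, 1.74 to 17.0 in Pms1 null, 0.337 to 18.3 in Q140 and 0.190 to 9.49 in WT striata, which overlapped. Cortical glutamatergic markers can enter a striatal dissection. They summed to 1038 to 1302 CPM in Q140 Pms1 null and 945 to 1153 in Pms1 null striata. The sums were 878 to 1091 CPM in Q140 and 1088 to 1310 in WT striata. Of these markers 1 of 10 was called, against 3.11% of all genes: Nrgn (0.38), which MSN also express. The list's median interaction was -0.26, with 4 of 10 above 0, and its sum is weighted to members with high counts. Thalamic and pallidal markers had 1 of 8 called (Lef1, positive), against 3.11% of all genes. They summed to 113 to 135 CPM in Q140 Pms1 null, 116 to 129 in Pms1 null, 108 to 123 in Q140 and 116 to 128 in WT striata. The part of cell-type proportions in the interaction was not tested.

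Pms1 heterozygotes give a value from other animals. In striata with 1 Pms1 copy the knock-in effect (Q140 Pms1 het minus Pms1 het) was below 0 in 560 of the 579 positive genes and above 0 in 230 of the 260 negative genes, against 8870 below and 9736 above 0 over all tested genes. Genes called for the average knock-in effect over both backgrounds gave like counts. Of 2934 with a lower average, 2845 were below 0 with 1 copy, and of 3134 with a higher average, 3046 were above 0. The sign with 1 copy is thus not particular to genes with an interaction. With 0, 1 and 2 copies the medians were -0.07, -0.19 and -0.30 over the positive genes and 0.00, 0.16 and 0.32 over the negative genes. The values at 0 and 2 copies chose these genes and that at 1 copy did not. Choice by a wide gap between 0 and 2 copies favours a 1-copy value between them. A middle value, in the medians or in single genes, therefore does not by itself show a graded effect of copies. For Scn4b the effects were -0.37, -0.70 and -1.0, for Penk -0.63, -0.87 and -1.08, for Adora2a -0.26, -0.51 and -0.70, and for Sfmbt2 0.50, 0.95 and 1.41. Each of these 4 genes thus took a middle value with 1 copy. Ryr1 did not, at -0.45, -1.05 and -1.04. Tested gene by gene, the interaction with 1 copy was called in 0 of 18890 genes by edgeR (1619 at an unadjusted p below 0.05) and in 13 by DESeq2. The knock-in effect with 0 copies less that with 1 copy was called in 1 gene by edgeR, Fabp3 (-0.36; 1989 genes at an unadjusted p below 0.05), and in 68 by DESeq2.

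**Figure D4:**
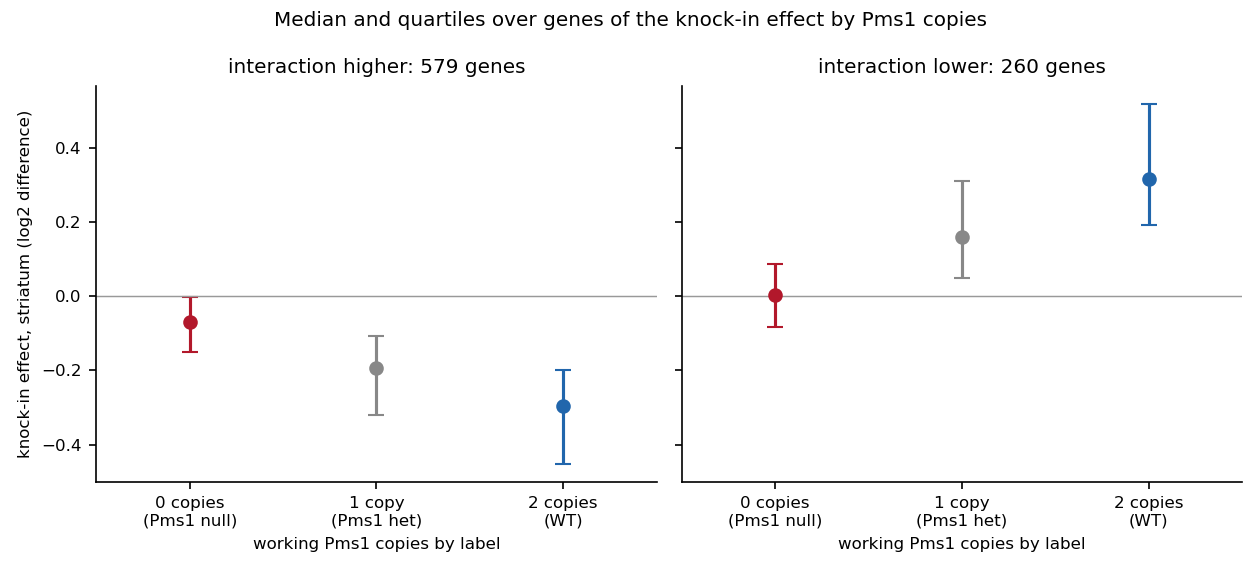
Median (points) and quartiles (bars) over genes of the striatal knock-in effect with 0, 1 and 2 Pms1 copies, for the 579 genes with a positive (left) and the 260 with a negative interaction (right). The medians are -0.07, -0.19 and -0.30 on the left and 0.00, 0.16 and 0.32 on the right. Values at 0 and 2 copies chose the genes, which favours a middle value at 1 copy, although that value comes from other animals.

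A view that does not choose genes by the interaction is given by the average knock-in effect over both backgrounds, which weighs them equally. The average was called in 6068 genes. Over the 2934 with a lower average the median knock-in effect was -0.10 without Pms1 and -0.19 with it, and over the 3134 with a higher average 0.11 without and 0.18 with it. In genes with an average decrease larger than 0.8 on the log2 scale (69 genes) the medians were -0.77 without and -1.28 with Pms1, and in those with an average increase over 0.8 (35 genes) 0.80 without and 1.14 with it. The median effect without Pms1 was nearer to 0 than that with Pms1 in each of these 4 sets. These comparisons share the 32 libraries, and the values are given side by side.

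The knock-in effect was called in 3 cortical genes on the Pms1 null background and in 5 on the wild-type background, and the cortical interaction in 0 of 18491 genes by edgeR (902 at an unadjusted p below 0.05). Over the 579 genes positive in striatum the median cortical interaction was 0.02, and over the 260 negative genes -0.05. The difference between tissues was tested with the animal as a block. It was called in 272 of 19519 genes (1.39%), 237 higher and 35 lower in striatum, and in 85 without the block. Called differences included Scn4b (0.68, adjusted p = 0.00905), Adcy5 (0.36, adjusted p = 0.00200), Itpr1 (0.32, adjusted p = 0.000530), Kcnip3 (0.41, adjusted p = 0.00925) and Sfmbt2 (-0.75, adjusted p = 0.0385). Adora2a (0.25, adjusted p = 0.547), Penk (0.14, adjusted p = 0.786) and Drd2 (0.50, adjusted p = 0.374) did not pass, and all 3 are rare in cortex, with a striatum to cortex log2 difference of 7.68, 5.8 and 8.70 in Pms1 heterozygotes.

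**Figure D5:**
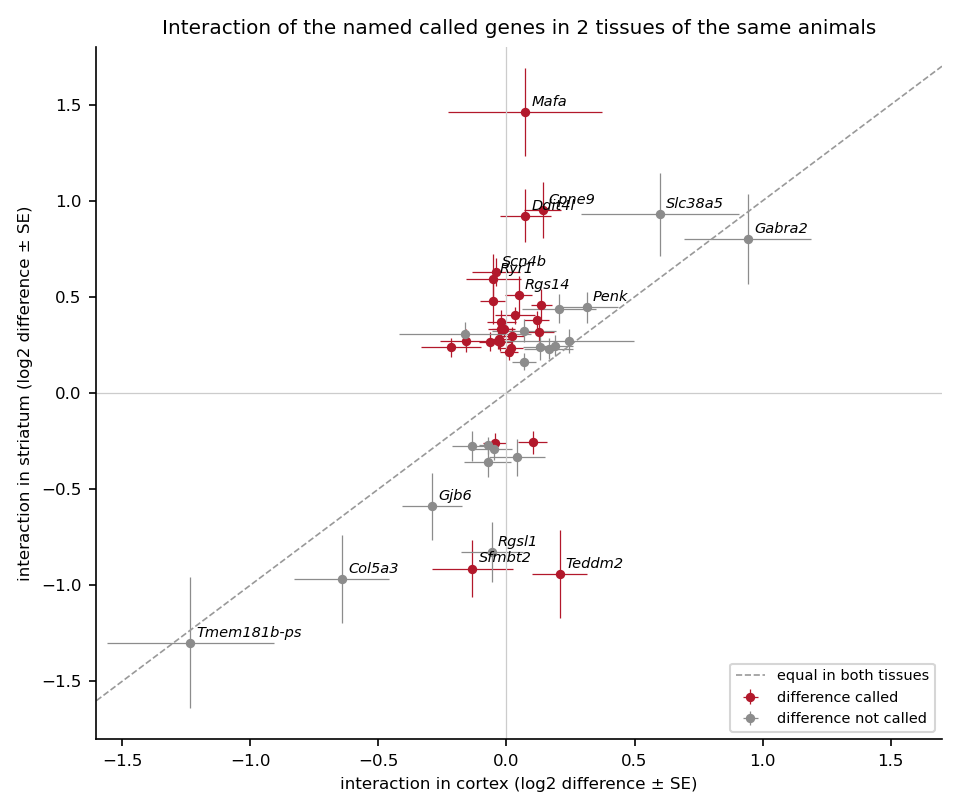
The interaction in cortex (horizontal) and striatum (vertical) for genes named in the text with a called striatal interaction and at least 1 CPM; bars are ± 1 SE, the dashed line marks equal values, and red points have a called difference between tissues. Mafa (1.46) and Cpne9 (0.95) lie near 0 in cortex, while Gabra2 (0.80 in striatum, 0.94 in cortex) and Tmem181b-ps (-1.30 and -1.23) lie near the dashed line.

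Genes with a positive interaction included many with higher levels in striatum than in cortex. In Pms1 heterozygotes, whose libraries did not choose them, 171 of the 579 (29.5%) were at least 2-fold higher in striatum than in cortex, against 10.0% of all tested genes, and 20 (3.45%) were at least 2-fold higher in cortex, against 9.11%. Of the 260 negative genes, 14 (5.38%) were 2-fold higher in striatum and 52 (20%) in cortex. Among genes of at least 10 CPM the positive genes still had 28.0% with a 2-fold higher level in striatum, against 6.62% of all, and the negative genes 16.2% with a 2-fold higher level in cortex, against 5.82%. A higher striatal level was not shared by all: Rgs7 (-1.13) and Cpne9 (-3.06, log2 of striatum over cortex) are higher in cortex, yet their interaction in striatum was positive. Genes chosen by the average knock-in effect, not by the interaction, also differed by region. With an average decrease of 0.2 to 0.4, 222 of 656 (33.8%) were 2-fold higher in striatum. With an average increase of 0.2 to 0.4, 154 of 743 (20.7%) were 2-fold higher in cortex. For all 2934 genes with a lower average the striatal share was 18.7%. For the 3134 with a higher average the cortical share was 12.4%. The shares are thus not particular to genes with an interaction.

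Females and males were compared last. The interaction was called in 521 genes in females alone (331 positive, 190 negative) and in 2 in males alone, both positive, Mafa among them. The difference between sexes was called in 0 of 18606 genes by edgeR, with 1425 at an unadjusted p below 0.05. Of the 839 genes, 838 had the same sign in both sexes. Both sexes entered the fit that called these genes, so this agreement is favoured by the choice. Scn4b had an interaction of 0.72 in females and 0.54 in males, Ano3 0.45 in females and 0.36 in males, and Cpne9 0.83 in females and 1.07 in males. Each sex alone has 4 animals per genotype, and both libraries that stood apart are from males.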

How the data were processed

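Raw read counts, whole numbers for every gene in every library, were taken from the deposited count table; the authors also deposited FPKM values, used only as an alternative. Per the labels' protocols, tissues were dissected at 6 months, RNA was purified on RNeasy columns and a stranded TruSeq protocol was used. STAR 2.7.5c, SAMtools 1.10 and HTSeq 0.12.3 and the builds GRCm38 and mm10 are named in the submitters' processing notes; the sources used here state neither strand setting nor annotation, so overlapping genes and near-identical copies are uncertain. The 32 striatal libraries were fitted with edgeR 4.0.16 in R 4.3.3 (filterByExpr by genotype, TMM scaling, robust quasi-likelihood F test, genotype and sex as terms), and adjusted p-values are Benjamini-Hochberg over all genes tested, called below 0.05. CPM values are TMM-scaled. The tissue test used the animal as a block since each animal gave both tissues; the paired deviations had a median correlation of 0.125 (lowest 0.0442, 25 of 32 pairs above 0.1). Scripts were tested on simulated data. No pair of replicate libraries differed by sampling noise alone (lowest chi-square per degree of freedom 4.18 over 48 pairs).

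Alternatives used DESeq2 1.42.0, limma 3.58.1 and other scalings, filters, terms and samples. Coordinates are from GENCODE M21 and promoters from RefSeq. The groups, gene lists and tests were chosen with earlier results of these data known. Named genes are a selection from Pms1, Htt, the 10 largest positive and negative interactions and the 5 smallest p in each direction among called genes of at least 1 CPM with a regular gene name and the same sign in both sexes, and up to 3 called members per list and direction. Tac1, Pdyn, Egr1, Egr2, Arc and Pcdhb3 and any other list member that was not called were named after their values were seen. Some genes that the rule names are left out of the text.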

Additional observations from a re-analysis of the deposited data

Results flagged for a closer look

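Among 232 checks of the named genes in groups of 8 animals, 18 found an animal whose gap to the nearest other was large against the range of its group; chance gives about 1 in 20. Low values were 62.0 CPM of Ppp1r1a in Q140 Pms1 null animal 18-1 and 78.3 in WT animal 14-2, and 8.90 CPM of Fabp3 in Q140 Pms1 null animal 27-3. Pms1 null animal 44-3 was low for Kcnab1 (528 CPM) and Cnr1 (364 CPM), Pms1 null animal 22-3 for Pms1 (3.08 CPM), and Q140 animal 18-2 for Tmem181b-ps (196 CPM). High values were 59.4 CPM of Rgs7 in Q140 Pms1 null animal 21-4, 3.36 CPM of Mafa in Pms1 null animal 22-2 and 6.37 CPM of Col5a3 in Pms1 null animal 22-1. Among Q140 animals, 23-4 was high for Ppp1r1b (2010 CPM), 8-2 for Wnt8b (1.91 CPM) and Arc (269 CPM), and 7-3 for Gjb6 (24.4 CPM), and among WT animals 14-2 was high for Rgsl1 (2.26 CPM). The immediate early genes Egr1 (512 CPM), Egr2 (26.3 CPM) and Arc (262 CPM) were all high in the same Q140 Pms1 null animal, 27-3.

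The interaction differed between striatum and cortex in 27 of the 58 named genes, by edgeR with the animal as a block. The log2 interaction in striatum less that in cortex was positive for Ano3 (0.38), Scn4b (0.68), Adcy5 (0.36), Ppp1r1a (0.27), Cap1 (0.36), Pde1b (0.32), Mafa (1.41), Cpne9 (0.81), Ddit4l (0.85), Kcnj4 (0.29), Kcnip3 (0.41), Grm5 (0.23), Gabrd (0.20), Prkcb (0.30), Camk2b (0.21), Itpr1 (0.32), Rgs4 (0.33), Kcnab1 (0.34), Drd1 (0.47), Rgs14 (0.46), Ppp1r1b (0.44), Ryr1 (0.65) and Cnr1 (0.55). It was negative for Sfmbt2 (-0.75), Stmn2 (-0.20), Fabp3 (-0.35) and Teddm2 (-1.13). The genes named were chosen for their striatal interaction in part, so a large difference from cortex is favoured by the choice.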

How the results depend on the processing

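Of 58 named genes 50 were called. All 50 kept their sign under every alternative that gave a value and with every library left out (Wt1 had no value in DESeq2). The alternatives reuse libraries that called the genes. The naming rule also asked for the same sign in both sexes in genes named by size or p. Agreement in sign is thus in part fixed by the choice. Whichever library was left out, 43 stayed called. With all 48 striatal libraries 49 stayed called, with DESeq2 49, with library totals 47, without the libraries that stood apart 42 (lost for Wt1, Wnt8b, Gja1, Gjb6, Pcdhb21, Cnr1, Cx3cr1 and Tmem181b-ps), with voom and the first code number as a random term 44, in females 38, in males 1 and among high-numbered animals 0. The interaction was called in 521 genes in females, 2 in males and 0 among high-numbered animals. Positive calls numbered 337 with library totals, 304 and 302 with log2(FPKM + 0.1) and log2(FPKM + 1), 331 in females, 2 in males and 0 among high-numbered animals. Negative calls numbered 838 with library totals, 714 and 733 with the FPKM values, 170 with no filter on low counts, and 0 in males and among high-numbered animals. The first code number as a random term lowered voom's count to 681 from 832, with a consensus correlation of 0.166 within a first number. Deviations from the genotype and sex fit had a mean correlation of -0.0341 between animals that share a first number, and -0.0316 between others. Leaving out 1 library gave 609 (without Q140 animal 7-3) to 989 calls (without WT animal 14-2), 452 to 662 positive and 157 (without Q140 animal 7-3) to 348 negative. The tissue difference was called in 85 genes without the replicate block, against 272 with it. By DESeq2 the interaction with 1 copy was called in 13 genes and the effect with 0 less 1 copy in 68. Signs turned in males for Arc (-0.61), Egr2 (-0.48) and Egr1 (-0.20), and among high-numbered animals for Pcdhb3 (0.19), none of them called. List medians turned for direct-pathway markers (voom -0.00801, library totals -0.0260, high-numbered animals -0.0225, without the libraries that stood apart -0.0455), astrocyte markers (library totals -0.0175), and among high-numbered animals for striatal transcription factors (0.0101), beta protocadherins (0.0239) and heat shock chaperones (-0.0851). The cause was not tested.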

Other observations

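In the list of copines and Polycomb-related MBT-domain genes, only Cpne9 and Sfmbt2 of 17 were called, in opposite directions. Most developmental transcription factors of the list (19 of 32) did not pass the filter on low counts; of the 13 tested, Mafa had a positive and Wt1 a negative interaction.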
